A study of Zea mays with 48 samples.

Results

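RBCS1 (Zm00001d052595), RBCS2 (Zm00001d004894) and Rubisco activase (Zm00001d048593) are 3 of the 46272 gene features counted in this study of maize leaves under attack by the spider mite Tetranychus urticae. They were chosen by identifier, as the genes for the small subunit of Rubisco and for the protein that keeps Rubisco active, and the rule that picked them used no measured value, although it was written with earlier results of these data known. In 12 groups of 4 libraries, all 18 fitted mite responses of these genes (3 genes in 6 genotype sets) lay below 0, and 12 of them passed the test as falls, where 8.57 to 23.6% of all genes fell in the same 6 comparisons. The 3 genes varied together and share libraries, so these are not 18 separate observations. For each gene the lowest fitted value was that of the F1 of B73 and B96, and the value nearest to 0 was that of RBCS2 in B75.

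Rubisco fixes CO2 in the Calvin cycle of the chloroplast. Its large subunit is encoded in the chloroplast genome, and its small subunit by the nuclear RBCS genes, whose product is imported and assembled with the large subunit. Rubisco activase is a nuclear-encoded ATPase that pulls inhibitory sugar phosphates out of the active site, so that the enzyme can be carbamylated and work. Maize is a C4 plant, and its Rubisco sits in the bundle-sheath cells around the veins, while spider mites pierce and empty cells of the leaf mesophyll.

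The B96 experiment held infested and control leaves of the inbred B96, of its F1 with B73, and of the inbred B73, and the B75 experiment those of the inbred B75, of its F1 with B73, and of a further set of B73 plants. B73 supplies the maize reference genome, while B96 and B75 have been described as mite-resistant. All plants grew in a greenhouse and were 22 days old. On leaf 4, a section bounded by a wax barrier carried 200 adult female mites for 24 hours in the infested groups, and control leaves had the barrier without mites. The design text assigns B73 replicates 1 to 4 to the B96 experiment and replicates 5 to 8 to the B75 experiment. The design text calls the replicates biological, while the number of plants behind a library is not given in the labels.

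The infested libraries held 9.98 to 16.6 M (mega) gene counts and the control libraries 12.5 to 20.9 M. The lowest count of any of the 3 genes in any library was 466 and the highest 29884, so counting error was at most 4.63% of a value. Between the 4 libraries of a group the coefficient of variation was 11.8 to 71.2%. The spread between libraries, not depth, therefore set the precision. Levels are in CPM, counts relative to a library size scaled by the trimmed mean of M-values (TMM) over all 48 libraries, with mean ± SD of 4 libraries. Since the reads of each line were counted on B73 gene models, sequence differences could cost reads in B96, B75 and the F1s. Reads that aligned to more than one place were not assigned to a gene and made up 8.20 to 16.9% of the reads of infested and 8.95 to 22.4% of those of control libraries. The files' build is B73 RefGen_v4. A RefSeq table of another B73 assembly, Zm-B73-REFERENCE-NAM-5.0, lists 2 genes under the name rbcS and lists rca3 directly beside rca1. The levels of all 3 genes are therefore uncertain to the extent that copies share reads, and the copy rca3 is not tied to an identifier of the deposited file.

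The 3 genes covered a wide range. Group means of RBCS1 ran between 239 CPM in infested leaves of the F1 of B73 and B96 and 1779 CPM in control leaves of B96, a 7.44-fold range. For RBCS2 the lowest mean was 115 CPM in infested leaves of the F1 of B73 and B75 and the highest 1793 CPM in control B96, 15.5-fold apart. Rubisco activase had its lowest mean, 279.9 ± 45.9 CPM, in the same infested F1 and its highest, 1942 CPM, in control B96, a 6.94-fold range. Control B96 thus stood first for each gene. Ordered by their means, neighbouring groups overlapped in their libraries in 11 of 11 cases for RBCS1 and in 10 of 11 for RBCS2 and for activase. The exceptions were control B96 above infested B96 for RBCS2, and infested B96 above infested B73 of the B75 experiment for activase. For RBCS1 the order of means was control leaves of B96, B73 of the B96 experiment, B73 of the B75 experiment and the F1 of B73 and B96. Next came infested B96, control B75, infested B73 of the B96 experiment, infested B75, control F1 of B73 and B75, and then infested B73 of the B75 experiment and the infested F1s of B75 and of B96. For activase 6 control groups held the first 6 places. For RBCS2 infested B96 ranked second, above 5 control groups.

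**Figure D1:**
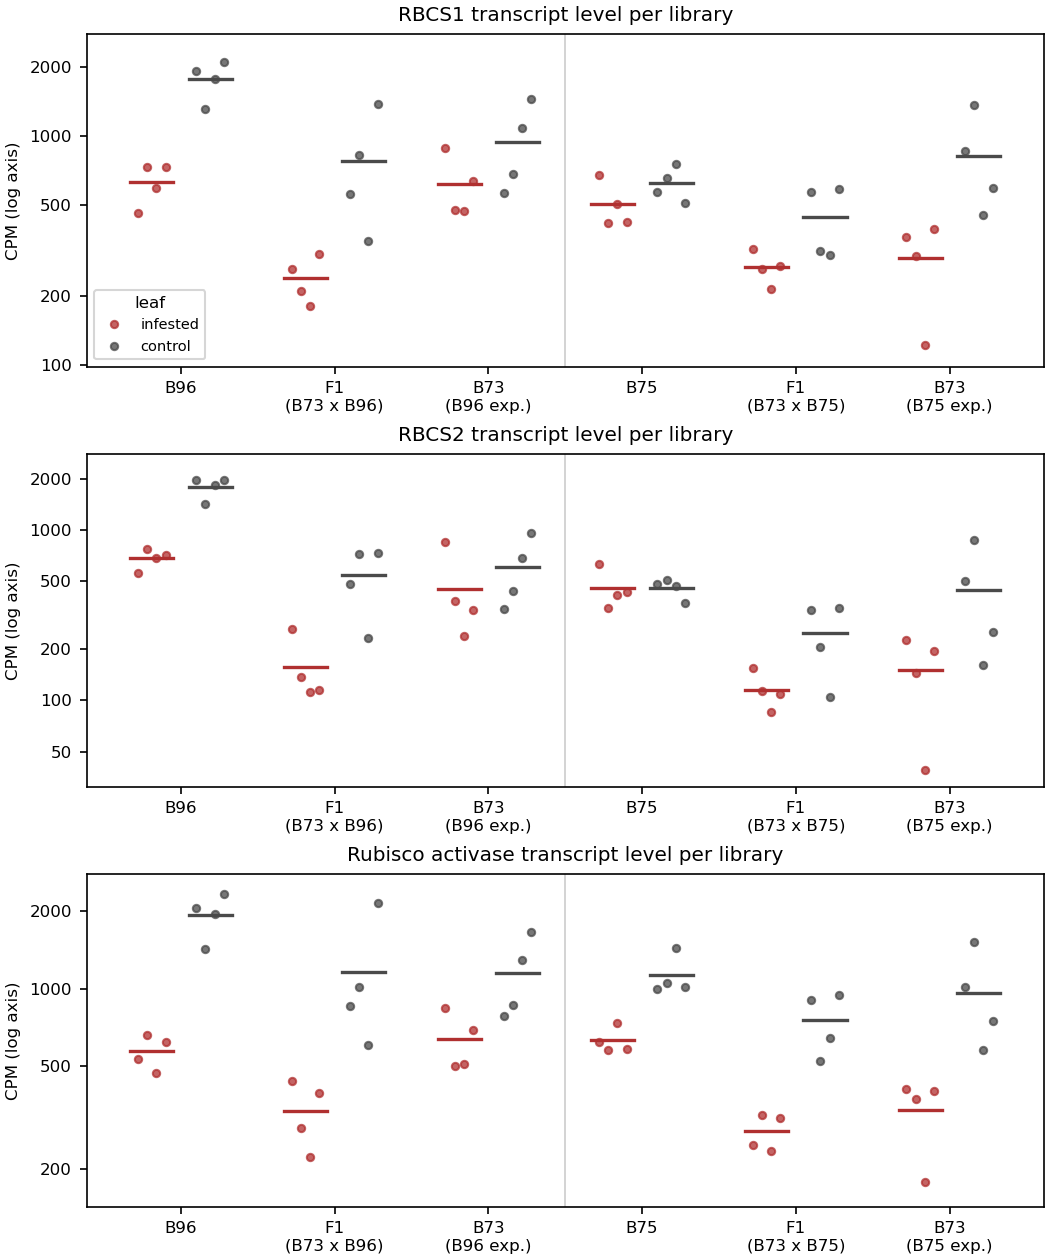
Transcript levels of RBCS1, RBCS2 and Rubisco activase in CPM (log axis) for each line or F1. Points are libraries, 4 to a group, and horizontal lines are group means. Control B96 has the highest mean for each gene (1779, 1793 and 1942 CPM), and infested points lie mostly below the control points of their genotype.

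The libraries of a group moved together in these genes. Within groups, log2 CPM of RBCS1 correlated with that of activase at r = 0.926 and with that of RBCS2 at r = 0.890, and RBCS2 with activase at r = 0.794. Across the 12 group means the values were 0.936, 0.950 and 0.873. These are descriptions over 48 libraries and 12 groups that share library scaling and depth. In B73 of the B75 experiment, replicate 7 was the lowest library for each of the 3 genes in infested and in control leaves. Within groups the TMM factor of a library ran against its levels, with r = -0.906 for RBCS1, -0.774 for RBCS2 and -0.935 for activase over 48 libraries. CPM is computed by dividing by this factor, so a negative r is partly built in. Beyond fits with total counts, the part of the factor in the results was not tested. With total counts in place of TMM, 11 of the 18 mite responses were called lower instead of 12, and 17 instead of 18 lay below 0. Each of the 18 values was higher with total counts. RBCS1 in B96 had -1.31 instead of -1.51, and RBCS2 in B73 of the B75 experiment -1.30 instead of -1.59. The median mite response of all genes moved the same way, by 0.093 to 0.21. Over all genes, 973 to 3395 per genotype set were called lower with total counts, against 1934 to 5333 with TMM. The share of reads with more than one alignment had r of -0.167 to -0.0963 with the 3 genes.

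The first question was what 24 hours of mite feeding did to these transcripts in each genotype. A gene is said to have fallen or risen where the edgeR quasi-likelihood test gave a Benjamini-Hochberg adjusted p under 0.05 over all genes of the fit. Overlap between the libraries of groups is described for these 3 genes only. The share of all genes without overlap was not counted. In B96, all 3 genes fell, where 5191 of the 22569 genes tested fell and 47.8% were called in either direction. RBCS1 stood at 463, 729, 593 and 734 CPM in infested leaves, against 1931, 1312, 1769.8 and 2103 CPM in control leaves. RBCS2 had 559, 778, 683 and 709 CPM in infested and 1963, 1413, 1827 and 1969 CPM in control leaves. Activase had 532, 662, 469 and 620.4 CPM in infested and 2057, 1433, 1948 and 2329 CPM in control leaves. Every infested library lay below every control library for each gene. The log2 fold changes, here and below with their SE after the ± sign, were -1.51 ± 0.35 for RBCS1 (edgeR adjusted p = 0.00102), -1.40 ± 0.39 for RBCS2 (adjusted p = 0.00495) and -1.77 ± 0.33 for activase (adjusted p = 1.1e-04). Activase was thus 3.42-fold lower in infested B96. In bulk leaf, fewer bundle-sheath cells and less RNA per cell cannot be told apart.

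The F1 of B73 and B96 gave the lowest fitted value for each gene. All 3 genes fell, where 20.3% of genes did. The small subunit RBCS1 had 261, 209.6, 181 and 305 CPM in infested leaves and 557, 828, 347 and 1384 CPM in control leaves. RBCS2 reached 263, 137, 111 and 116 CPM in infested leaves, against 481, 727, 232 and 734 CPM in control leaves. Activase was at 437, 288, 223 and 395 CPM in infested leaves and at 858, 1020.1, 605 and 2146 CPM in control leaves. Infested and control libraries did not overlap for RBCS1 and activase. For RBCS2, infested replicate 1 lay above control replicate 3. Control replicate 4 was the highest for each gene and control replicate 3 the lowest. The log2 fold changes were -1.74 ± 0.35 for RBCS1, -1.82 ± 0.40 for RBCS2 and -1.82 ± 0.33 for activase (edgeR adjusted p = 4.6e-04, 9.4e-04 and 1.5e-04). All 6 of these calls in B96 and its F1 held without any 1 library and under each other setting tried.

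In B73 of the same experiment none of the 3 falls passed the test, where 8.57% of genes fell. RBCS1 had 887, 474, 471 and 637 CPM in infested leaves, against 566, 684, 1085 and 1451 CPM in control leaves. RBCS2 showed 849.8, 381, 238 and 339 CPM in infested and 345, 437, 688 and 962 CPM in control leaves. For activase the values were 840.3, 499.8, 512 and 693 CPM in infested and 781, 864, 1299.5 and 1657 CPM in control leaves. The groups overlapped for each gene, and infested replicate 1 was the highest infested library for all 3. The log2 fold changes were -0.60 ± 0.34 for RBCS1, -0.41 ± 0.39 for RBCS2 and -0.83 ± 0.32 for activase (edgeR adjusted p = 0.214, 0.475 and 0.0598). Leaving out 1 library at a time moved the RBCS1 value between -0.83 and -0.31 and the RBCS2 value between -0.91 and -0.09, without a call in any of these fits. The activase value passed without infested replicate 1 (-1.0, adjusted p = 0.0367), without control replicate 1 (-0.98, adjusted p = 0.0359) or without control replicate 2 (-0.97, adjusted p = 0.0493), and with DESeq2 at -0.86 (adjusted p = 0.0289). It passed in 1 fit over 48 libraries too (-0.85, adjusted p = 0.0302).

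The B73 plants of the B75 experiment gave a larger fitted response. There all 3 genes fell, where 20.2% of 22572 genes fell. RBCS1 measured 362, 298, 123 and 394 CPM in infested leaves (replicates 5 to 8), against 863, 1362, 453 and 590.4 CPM in control leaves. RBCS2 measured 226, 145, 38.9 and 194 CPM in infested and 505, 869.6, 161 and 250.4 CPM in control leaves. Activase measured 407, 372, 178 and 401 CPM in infested and 1013, 1516, 579.8 and 751 CPM in control leaves. The groups were apart for RBCS1 and activase and overlapped for RBCS2. The log2 fold changes were -1.50 ± 0.33 for RBCS1, -1.59 ± 0.47 for RBCS2 and -1.54 ± 0.27 for activase (edgeR adjusted p = 0.00111, 0.00973 and 1.3e-04). The RBCS2 call was lost without control replicate 6, the highest control library (-1.04, adjusted p = 0.0756), and in a fit of these 2 groups alone (-1.57, adjusted p = 0.0744).

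Whether B73 responded differently in its 2 experiments was tested over its 16 libraries, in the direction B75 experiment minus B96 experiment. The difference of responses was -0.87 ± 0.57 for RBCS1, -1.15 ± 0.81 for RBCS2 and -0.67 ± 0.47 for activase, with an edgeR adjusted p of 0.998 for each. No gene of the 21017 tested passed there (0% called), 692 had an unadjusted p under 0.05, and DESeq2 called 6. Infested B73 leaves differed by -1.08 ± 0.41, -1.59 ± 0.58 and -0.91 ± 0.34 in the same order (adjusted p = 0.190, 0.183 and 0.183), and control leaves by -0.21 ± 0.40, -0.44 ± 0.57 and -0.25 ± 0.33 (adjusted p = 0.894, 0.831 and 0.838). The share of all genes called was 0.347% in infested and 0.200% in control leaves.

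In B75, activase fell and the small subunits did not pass the test, where 17.1% of genes fell. Activase had 621, 579, 739 and 585 CPM in infested leaves and 1002, 1053, 1443 and 1014 CPM in control leaves, with no overlap. RBCS1 had 672, 417, 504 and 422 CPM in infested and 571, 655, 756 and 511 CPM in control leaves. RBCS2 had 632, 348, 415 and 433 CPM in infested leaves, against 484, 506, 468 and 371 CPM in control leaves. For both small-subunit genes the groups overlapped, and infested replicate 1 was the highest infested library. The log2 fold changes were -0.87 ± 0.27 for activase (edgeR adjusted p = 0.0120), -0.34 ± 0.32 for RBCS1 (adjusted p = 0.436) and -0.03 ± 0.45 for RBCS2 (adjusted p = 0.976). The sign of the RBCS2 value changed without infested replicate 2 (0.05), without control replicate 2 (0.03) and with total-count scaling (0.07).

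In the F1 of B73 and B75, activase and RBCS2 fell, where 23.6% of genes fell. Activase was at 247, 324, 234 and 315 CPM in infested leaves, against 905, 525, 642 and 943 CPM in control leaves, with no overlap. RBCS2 was at 154, 114, 85.0 and 109 CPM in infested and 339.7, 205, 105 and 348 CPM in control leaves. RBCS1 was at 322, 263, 215 and 271 CPM in infested and 570.2, 316, 301 and 589 CPM in control leaves. The groups overlapped for both small-subunit genes, with control replicates 2 and 3 of RBCS1 and control replicate 3 of RBCS2 inside or below the infested range. The log2 fold changes were -1.49 ± 0.27 for activase (edgeR adjusted p = 1.1e-04), -1.18 ± 0.46 for RBCS2 (adjusted p = 0.0413) and -0.80 ± 0.33 for RBCS1 (adjusted p = 0.0505). The RBCS2 call was lost without infested replicate 2 (-1.15, adjusted p = 0.0822), 3 (-1.03, adjusted p = 0.113) or 4 (-1.12, adjusted p = 0.0870) and without control replicate 1 (-0.99, adjusted p = 0.115) or 4 (-0.97, adjusted p = 0.119). Total-count scaling lost the RBCS2 call as well (-0.99, adjusted p = 0.0605). The RBCS1 value passed without control replicate 2 (-0.93, adjusted p = 0.0331) or 3 (-0.95, adjusted p = 0.0289), and with DESeq2 (-0.78, adjusted p = 0.0401). It passed in a fit of these groups alone too (-0.76, adjusted p = 0.0240).

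**Figure D2:**
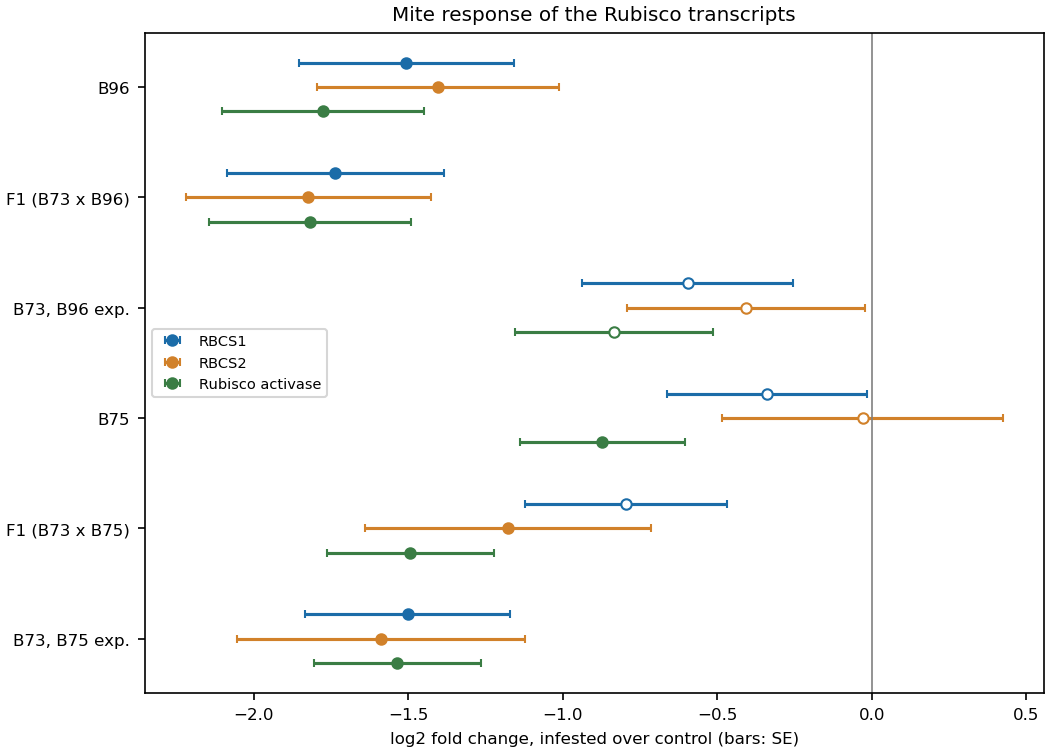
Log2 fold change of infested over control leaves for RBCS1, RBCS2 and Rubisco activase in each line or F1, with bars of 1 SE. Filled points passed an edgeR adjusted p of 0.05 and open points did not. All 18 values lie below 0, between -1.82 and -0.03, and 12 are filled.

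The tests of the differences between responses asked whether the genotypes differed in how far these genes moved. The response of B96 minus that of B73 was -0.91 ± 0.48 for RBCS1, -1.0 ± 0.54 for RBCS2 and -0.94 ± 0.45 for activase on the log2 scale (edgeR adjusted p = 0.186, 0.201 and 0.140). None passed, where 22.0% of genes did. For the F1 of B73 and B96 minus B73 the values were -1.14 ± 0.48, -1.42 ± 0.55 and -0.98 ± 0.45 in the same order (adjusted p = 0.578, 0.525 and 0.617), where 0.151% of genes passed. The F1 minus B96 gave -0.23 ± 0.48, -0.42 ± 0.54 and -0.04 ± 0.45 (adjusted p = 0.823, 0.687 and 0.980, with 8.96% of genes passing). These contrasts share the B73 or B96 libraries, and a value that misses the threshold does not show that responses were alike.

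In the B75 experiment the fitted differences from B73 lay above 0, although the activase value of the F1 changed sign with total-count scaling (-0.044). The response of B75 minus that of B73 was 1.16 ± 0.46 for RBCS1, 1.56 ± 0.65 for RBCS2 and 0.66 ± 0.37 for activase (edgeR adjusted p = 0.116, 0.133 and 0.279), a smaller fitted fall in B75. None passed, against 9.20% of genes. For the F1 of B73 and B75 minus B73 the values were 0.71 ± 0.46, 0.41 ± 0.65 and 0.04 ± 0.37 (adjusted p = 0.695, 0.923 and 1.00, with 0.877% of genes passing). The F1 minus B75 gave -0.46 ± 0.46, -1.15 ± 0.65 and -0.62 ± 0.37 (adjusted p = 0.650, 0.352 and 0.391, with 2.46% of genes passing). Across experiments, the response of B96 minus that of B75, fitted over 48 libraries, was -1.19 ± 0.48 for RBCS1, -1.39 ± 0.62 for RBCS2 and -0.93 ± 0.42 for activase (adjusted p = 0.0796, 0.115 and 0.123). None passed, where 18.5% of 23751 genes did, and line and experiment cannot be told apart in this contrast.

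In uninfested leaves B96 carried more of each transcript than B73. All 3 genes were higher in B96, where 32.2% of genes were. RBCS1 averaged 1779 ± 339.6 CPM in B96 and 946 ± 403 CPM in B73, RBCS2 averaged 1793 ± 262 CPM in B96 and 608 ± 277 CPM in B73, and activase averaged 1942 ± 375 CPM in B96 and 1150.4 ± 407 CPM in B73. Only the RBCS2 libraries of the lines did not overlap. The log2 differences were 0.92 ± 0.34 for RBCS1, 1.57 ± 0.39 for RBCS2 and 0.76 ± 0.32 for activase (edgeR adjusted p = 0.0232, 0.00140 and 0.0412). The RBCS1 call was lost without B96 control replicate 4 (0.82, adjusted p = 0.0577), B73 control replicate 1 (0.73, adjusted p = 0.0839) or B73 control replicate 2 (0.78, adjusted p = 0.0741). That of activase was lost without B96 control replicate 1 (0.73), 3 (0.75) or 4 (0.66) and without B73 control replicate 1 (0.61), 2 (0.64) or 3 (0.82), with adjusted p of 0.0525 to 0.127 in these 6 fits, and with total-count scaling (0.57, adjusted p = 0.0557).

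In infested leaves the levels of B96 and B73 were not told apart by the test for any of the 3 genes, where 57.8% of genes differed. RBCS1 averaged 629.7 ± 129 CPM in B96 and 618 ± 196 CPM in B73 (log2 difference 0.0053 ± 0.34, edgeR adjusted p = 0.991). RBCS2 averaged 682 ± 91.5 CPM in B96 and 452 ± 272 CPM in B73 (0.57 ± 0.39, adjusted p = 0.215), and passed without B73 infested replicate 1 (1.07, adjusted p = 0.0184). Activase averaged 571 ± 86.8 CPM in B96 and 636 ± 162 CPM in B73 (-0.18 ± 0.32, adjusted p = 0.651).

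B75 and B73 showed the reverse layout, with no call in control leaves and 2 calls in infested leaves. In control leaves RBCS1 averaged 623 ± 106 CPM in B75 and 817 ± 401 CPM in B73, RBCS2 457 ± 59.5 CPM in B75 and 446 ± 318 CPM in B73, and activase 1128 ± 211 CPM in B75 and 965 ± 408 CPM in B73. The log2 differences were -0.40 ± 0.32, 0.03 ± 0.45 and 0.22 ± 0.26 (edgeR adjusted p = 0.313, 0.969 and 0.506), where 54.6% of genes differed. In infested leaves RBCS2 and activase were higher in B75, where 27.6% of genes were. RBCS2 averaged 457 ± 122 CPM in infested B75 and 151 ± 81.9 CPM in infested B73 (log2 difference 1.58 ± 0.47, adjusted p = 0.00637). Activase averaged 631 ± 74.3 CPM in infested B75 and 339 ± 109 CPM in infested B73 (0.88 ± 0.27, adjusted p = 0.00780). RBCS1 averaged 504 ± 119 CPM in infested B75 and 294 ± 121 CPM in infested B73 (0.76 ± 0.33, adjusted p = 0.0529), and passed without B73 infested replicate 8 (0.90, adjusted p = 0.0407). This RBCS1 difference passed with total counts (0.69, adjusted p = 0.0452) and with DESeq2 (0.75, adjusted p = 0.042) as well. Every infested B75 library lay above every infested B73 library for each gene, a separation that was not counted over all genes.

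Each F1 was set against the mean of its parents on the log2 scale, which asks how the level is inherited. All 12 fitted values (3 genes, 2 crosses, infested and control leaves) lay below the mid-parent, and 5 passed as lower. Of all genes, 419 to 2264 per comparison were lower, and the median was 0.046 to 0.11. The 3 genes varied together and share libraries, so these are not 12 separate observations. In infested leaves of the F1 of B73 and B96 all 3 genes were lower, where 6.84% of genes were. RBCS1 averaged 239 ± 55.1 CPM in the F1, against 629.7 ± 129 CPM in B96 and 618 ± 196 CPM in B73. RBCS2 averaged 157 ± 71.9 CPM in the F1, against 682 ± 91.5 CPM in B96 and 452 ± 272 CPM in B73. Activase averaged 336 ± 97.8 CPM in the F1, against 571 ± 86.8 CPM in B96 and 636 ± 162 CPM in B73. For RBCS1 and activase every F1 library lay below every library of either parent, and for RBCS2 F1 replicate 1 overlapped B73. The log2 differences from the mid-parent were -1.39 ± 0.32, -1.84 ± 0.37 and -0.85 ± 0.29 (edgeR adjusted p = 0.00264, 7.8e-04 and 0.0339). The activase call was lost without F1 infested replicate 2 (-0.78, adjusted p = 0.0976) or 3 (-0.70, adjusted p = 0.134), B96 infested replicate 2 (-0.81, adjusted p = 0.0567) or 4 (-0.83, adjusted p = 0.0526), or B73 infested replicate 1 (-0.77, adjusted p = 0.0638).

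In control leaves of this F1 RBCS2 was lower than the mid-parent, where 2264 of 22569 genes were lower and 33.6% were called in either direction. RBCS2 averaged 543 ± 239 CPM in the F1, against 1793 ± 262 CPM in B96 and 608 ± 277 CPM in B73. The log2 difference was -0.92 ± 0.35 for RBCS2 (edgeR adjusted p = 0.0450), -0.71 ± 0.30 for RBCS1 (adjusted p = 0.0761) and -0.34 ± 0.28 for activase (adjusted p = 0.367), with a median of 0.11 over all genes. These values turned on single libraries. The RBCS2 call was lost without F1 control replicate 1 (-0.86) or 3 (-0.66), B96 control replicate 1 (-0.90), 3 (-0.92) or 4 (-0.90), or B73 control replicate 3 (-0.89) or 4 (-0.76), with adjusted p of 0.0610 to 0.174 in these 7 fits. Without F1 control replicate 4, the library with the highest levels, RBCS1 (-1.16, adjusted p = 0.00606) and activase (-0.84, adjusted p = 0.0158) passed as well, and RBCS1 also passed without B73 control replicate 1 (-0.80, adjusted p = 0.0446). With DESeq2 RBCS1 passed too (-0.76, adjusted p = 0.0328). The RBCS2 call was lost in 1 fit over 48 libraries (-0.94, adjusted p = 0.0608).

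The F1 of B73 and B75 gave 1 call, for activase in infested leaves, where 1.86% of genes were lower. Activase averaged 279.9 ± 45.9 CPM in the infested F1, against 631 ± 74.3 CPM in B75 and 339 ± 109 CPM in B73. F1 libraries lay below those of B75 and overlapped those of B73. The log2 differences from the mid-parent were -0.74 ± 0.24 for activase, -1.20 ± 0.42 for RBCS2 and -0.54 ± 0.29 for RBCS1 (edgeR adjusted p = 0.0427, 0.0625 and 0.255). The activase call held in only 2 of 12 fits that left out 1 library, those without B75 infested replicate 2 and without B73 infested replicate 7. It was lost without F1 infested replicate 1 (-0.68), 2 (-0.81), 3 (-0.65) or 4 (-0.79), B75 infested replicate 1 (-0.73), 3 (-0.69) or 4 (-0.75), and B73 infested replicate 5 (-0.68), 6 (-0.71) or 8 (-0.69). With no low-count filter (-0.70, adjusted p = 0.0543) and in 1 fit over 48 libraries (-0.73, adjusted p = 0.0694) it was lost too. RBCS2 passed without B73 infested replicate 7 (-1.35, adjusted p = 0.0145). RBCS2 passed with total counts (-1.16, adjusted p = 0.0442) and with DESeq2 (-1.22, adjusted p = 0.0354) as well. So it did with only the groups compared (-1.18, adjusted p = 0.0257) and in 1 fit over 48 libraries (-1.19, adjusted p = 0.0446). In control leaves the differences were -0.45 ± 0.23 for activase, -0.83 ± 0.41 for RBCS2 and -0.66 ± 0.29 for RBCS1 (adjusted p = 0.187, 0.159 and 0.111). None was called, where 19.8% of genes were called in either direction and 901 of 22572 were lower.

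The F1 responses themselves were also set against the mean response of the parents. In the cross with B96 the differences were -0.69 ± 0.42 for RBCS1, -0.92 ± 0.47 for RBCS2 and -0.51 ± 0.39 for activase (edgeR adjusted p = 0.716, 0.622 and 0.795). In the cross with B75 they were 0.13 ± 0.40, -0.37 ± 0.56 and -0.29 ± 0.32 (adjusted p = 0.972, 0.893 and 0.833). None passed, and 0.315% and 0.0975% of all genes did.

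**Figure D3:**
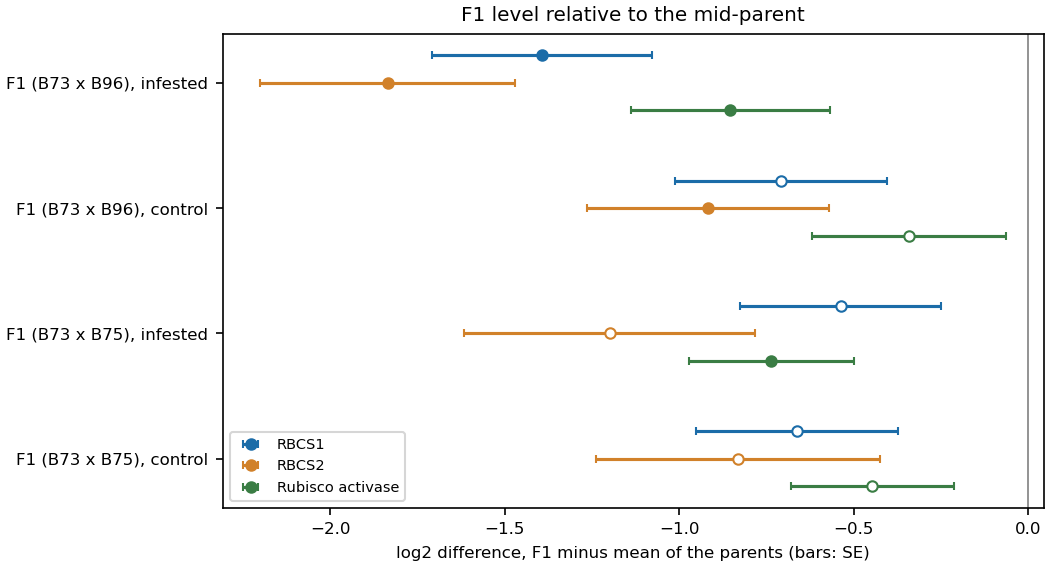
Log2 difference of each F1 from the mean of its parents, in infested and in control leaves, with bars of 1 SE. Filled points passed an edgeR adjusted p of 0.05. All 12 values lie below 0, and the lowest is RBCS2 in infested leaves of the F1 of B73 and B96 at -1.84.

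The balance of both small-subunit genes was read within each library, as the share of RBCS1 in the counts of RBCS1 plus RBCS2. A share of this kind does not depend on library scaling. It is a share of counts and not of molecules, since transcript length was not used. Reads were counted on B73 gene models, and reads with more than one alignment were not assigned. Loss of reads could thus shift the share between lines, which was not tested. Every B96 library lay below every B73 library of the same treatment in its experiment. The shares were 49.6, 48.1, 49.2 and 51.6% in control B96, against 62.1, 61.0, 61.2 and 60.1% in control B73, and 45.3, 48.4, 46.5 and 50.9% in infested B96, against 51.1, 55.5, 66.5 and 65.3% in infested B73. The mean differences were -11.5 percentage points in control and -11.8 in infested leaves (exact permutation test, two-sided, p = 0.0286 each, 0.0889 after Benjamini-Hochberg adjustment over 28 comparisons). With 4 libraries in each group an exact p cannot go under 0.0286, and none of the 28 comparisons passed 0.05 after adjustment.

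In B75 the share was 51.6, 54.5, 54.8 and 49.4% in infested and 54.1, 56.4, 61.8 and 57.9% in control leaves. Infested B75 lay below infested B73 of its experiment, which had 61.5, 67.2, 75.9 and 67.0%, with a mean difference of -15.4 points (exact permutation p = 0.0286, adjusted 0.0889). The mean difference of control B75 from control B73 was -9.5 points, with B73 at 63.1, 61.0, 73.9 and 70.2% (p = 0.0571, exact permutation, adjusted 0.133). In the F1s the mean shares were 61.2 ± 9.29% in infested and 58.0 ± 5.73% in control leaves of the cross with B96 (SD, n = 4), and 70.1 ± 1.86% in infested and 65.1 ± 6.16% in control leaves of the cross with B75. Their differences from B73 were 1.61 (infested) and -3.07 points (control) in the cross with B96. In the cross with B75 they were 2.20 and -1.97 points, and libraries overlapped in each case. The F1 shares were not tested against the other parent or the mid-parent. No mite response of the share had an exact permutation p below 0.0857.

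Activase was also set against the sum of both small-subunit counts. In B75 this ratio averaged 0.680 ± 0.145 in infested and 1.05 ± 0.138 in control leaves (SD, n = 4), with a mean difference of -0.64 on the log2 scale and no overlap. The F1 of B73 and B75 gave 0.747 ± 0.157 in infested and 1.15 ± 0.291 in control leaves (-0.62), and B96 0.439 ± 0.0630 in infested and 0.542 ± 0.0212 in control leaves (-0.31), also without overlap. Each of these 3 responses had an exact permutation p of 0.0286 and 0.0889 after adjustment. The ratio averaged 0.828 ± 0.196 in infested and 0.814 ± 0.125 in control B73 of the B75 experiment (0.01, exact p = 0.943). In B73 of the B96 experiment the means were 0.625 ± 0.113 in infested and 0.762 ± 0.0725 in control leaves (-0.30, exact p = 0.114), and in the F1 with B96 0.842 ± 0.0733 in infested and 0.886 ± 0.181 in control leaves (-0.05, exact p = 0.8). Between lines, the mean difference of control B96 from control B73 was -0.49 on the log2 scale, without overlap (exact p = 0.0286, adjusted 0.0889). Infested B96 differed from infested B73 by -0.50, with overlap (exact p = 0.0571, adjusted 0.133). Infested B75 (-0.28) and the infested F1 with B75 (-0.15) also lay below B73 (exact p = 0.343 and 0.543). Above B73 were the infested F1 with B96 (0.44) and the control F1 with B75 (0.48), both without overlap (exact p = 0.0286, adjusted 0.0889). So were control B75 (0.36, exact p = 0.0571, adjusted 0.133) and the control F1 with B96 (0.20, exact p = 0.286).

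**Figure D4:**
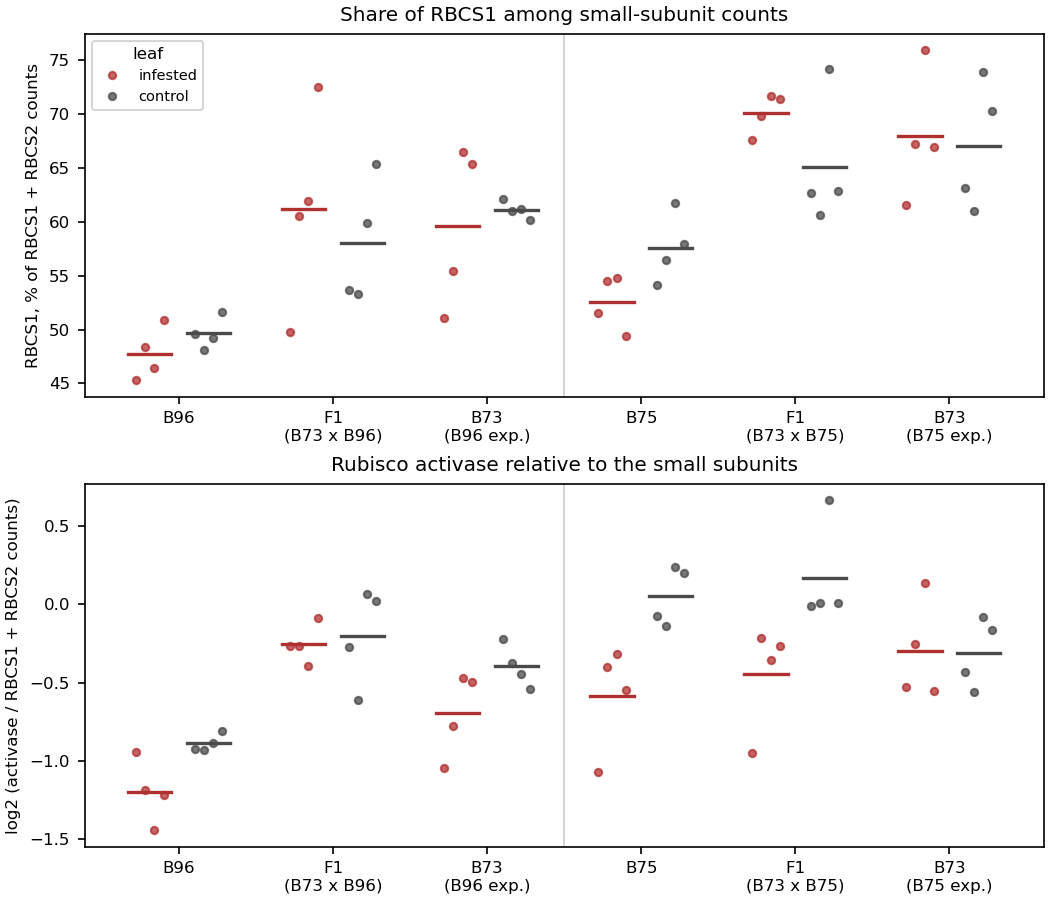
Share of RBCS1 in the counts of RBCS1 plus RBCS2, in percent (upper panel), and log2 ratio of Rubisco activase counts to that sum (lower panel). Points are libraries and lines are group means of 4. B96 has the lowest shares (means 47.8% infested and 49.6% control), and the ratio of infested B75 lies below that of control B75 in every library.

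Other features followed the members closely across the 12 group means of log2 CPM. Among 21536 features kept in both experiments, Zm00001d021620 (Pearson r = 0.990) and Zm00001d003429 (0.985) were most like RBCS1, Zm00001d003459 (0.988) and Zm00001d010523 (0.979) most like RBCS2, and Zm00001d030127 and Zm00001d005972 (0.989 each) most like activase. Each had its highest group mean in control B96 and its lowest in infested leaves of the F1 of B73 and B75. The group means of Zm00001d003429 ran between 791 and 4674 CPM, those of Zm00001d003459 between 9.99 and 217 CPM and those of Zm00001d005972 between 26.4 and 49.4 CPM. The files and the reference table used here do not pair these identifiers with names. The correlations describe 12 groups that share libraries and scaling.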

How the data were processed

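Leaf RNA was sequenced in 48 libraries. Per the submitters' processing notes, STAR 2.5.3a and HTSeq 0.9.1 were used. The deposited values are whole-number counts per gene, made by the authors on the build B73 RefGen_v4. The table held 46272 features and 5 summary lines, which stayed out of library sizes and tests, and 0 columns without a sample. Counts were fitted with edgeR 4.0.16 (limma 3.58.1, R 4.3.3) by the quasi-likelihood test, with filterByExpr (minimum count 10), TMM scaling, 1 mean per group and no covariate. Each experiment was fitted over its 24 libraries, B73 across experiments over 16, and B96 against B75 over 48. Adjusted p-values (Benjamini-Hochberg, threshold 0.05) cover all genes of a fit. Ratios were tested by exact permutation (scipy 1.17.1), two-sided. On simulated counts for the B96 response, the fit recovered 88% of 100 genes changed by 1 on the log2 scale and 99% of 100 changed by 2. It made 15 false calls in a fit of 21998 genes. Only these genes were changed and none was a member, so the power for the members was not measured. Alternatives were RLE size factors, total counts, no filter, DESeq2 1.42.0, a replicate block, other sets of libraries in the fit, and leaving out each library. Similar genes were the 2 with the highest Pearson r per member. The members and lists were chosen with earlier results of these data known. Of the identifiers, 0 matched the RefSeq table, so other genes of the pathway, coordinates and lengths were not used here.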

Additional observations from a re-analysis of the deposited data

Results flagged for a closer look

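In 60 sets of 4 libraries, 1 library stood apart from the other 3 by more than Dixon's 95% limit in 5 sets, and chance flags about 5% of such sets. The sets read the 3 genes and the ratios of their counts in the same 12 groups, so they are not 60 separate observations. RBCS2 in infested leaves of the F1 of B73 and B96 was at 263 CPM in replicate 1, above the other 3. Rubisco activase in infested B73 of the B75 experiment was at 178 CPM in replicate 7, below the other 3. Rubisco activase in control B75 was at 1443 CPM in replicate 3, above the other 3. In control leaves of the F1 of B73 and B75, replicate 3 held the highest share of RBCS1 in the small-subunit counts (74.2%) and the highest log2 ratio of activase to these counts (0.66).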

How the results depend on the processing

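With RLE size factors all 78 results kept their direction and call. Total-count scaling moved the median of all genes by -0.22 to 0.21 on the log2 scale. Under it activase in control B96 against B73 (0.57) and the RBCS2 response of the F1 with B75 (-0.99) lost their calls, RBCS1 in infested B75 against B73 (0.69) and RBCS2 in the infested F1 of B73 and B75 against the mid-parent (-1.16) gained one, and RBCS1 in infested B96 against B73 (-0.12), the RBCS2 response of B75 (0.071) and the activase response of the F1 with B75 minus that of B73 (-0.044) changed sign. With DESeq2, calls were gained for the activase response of B73 in the B96 experiment (-0.86), RBCS1 in the control F1 of B73 and B96 against the mid-parent (-0.76), the RBCS1 response of the F1 with B75 (-0.78), RBCS1 in infested B75 against B73 (0.75) and RBCS2 in the infested F1 of B73 and B75 against the mid-parent (-1.22). With no low-count filter the activase difference of the infested F1 of B73 and B75 from the mid-parent (-0.70) lost its call. With only the groups compared, the RBCS2 response of B73 in the B75 experiment (-1.57) lost its call, and the RBCS1 response of the F1 with B75 (-0.76) and its infested RBCS2 difference from the mid-parent (-1.18) gained one. In 1 fit over 48 libraries, the activase response of B73 in the B96 experiment (-0.85) and the infested RBCS2 difference of the F1 of B73 and B75 (-1.19) gained a call, and the RBCS2 difference of the control F1 of B73 and B96 (-0.94) and the infested activase difference of the F1 of B73 and B75 (-0.73) lost it. The cause of these changes was not tested.

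For the replicate block, runs of 6 consecutive library numbers were used. Each run holds 1 replicate number of the lines and F1s of an experiment (B73 replicates 5 to 8 go with 1 to 4 in the B75 experiment), and the labels name a randomized block design without saying that a number marks a block. Deviations of libraries of 1 block had a median correlation of 0.118 in each experiment, and 32 of 60 pairs in the B96 and 35 of 60 in the B75 experiment were over 0.1. Pairs from different blocks had medians of -0.048 (39 of 180 over 0.1) in the B96 and -0.034 (26 of 180) in the B75 experiment, so libraries of 1 block were on the median more alike. Since not every pair was over 0.1, the numbers were not taken to pair the samples, and a shared block remains possible. With the block, calls were gained for the activase response of B73 in the B96 experiment (-0.83), RBCS1 in the control F1 of B73 and B96 against the mid-parent (-0.78), the RBCS1 response of the F1 with B75 (-0.78), RBCS1 in infested B75 against B73 (0.82) and RBCS2 in the infested F1 of B73 and B75 against the mid-parent (-1.16), and the activase response of the F1 with B96 minus that of B96 changed sign (0.011). Of 18 mite responses, 14 were called lower with the block and 14 with DESeq2, where the genes called lower per genotype set numbered 2454 to 5688 with the block, 2644 to 5513 with DESeq2 and 1934 to 5333 in the reported fits.

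Leaving out 1 library at a time left 1108 of 1184 values marked as unchanged. For values of single genes, unchanged meant the same direction and call. For the ratios it meant a move of less than the pooled SD of the groups compared, without a new test, so a sign could change. Results that lost a call in at least 1 such fit ranged over 0.73 to 1.21 for RBCS1 in B96 minus B73 in control leaves, 0.61 to 1.00 for activase in B96 minus B73 in control leaves and -1.11 to -0.66 for RBCS2 in the F1 with B96 minus mid-parent in control leaves. Further ranges were -1.01 to -0.70 for activase in the F1 with B96 minus mid-parent in infested leaves, -1.85 to -1.04 for RBCS2 in the response of B73 of the B75 experiment and -0.84 to -0.65 for activase in the F1 with B75 minus mid-parent in infested leaves. The last was -1.44 to -0.97 for RBCS2 in the response of the F1 with B75. Those that gained one ranged over -1.0 to -0.60 for activase in the response of B73 of the B96 experiment, -1.16 to -0.46 for RBCS1 in the F1 with B96 minus mid-parent in control leaves and -0.84 to -0.12 for activase in the F1 with B96 minus mid-parent in control leaves. Further ranges were 0.36 to 1.07 for RBCS2 in B96 minus B73 in infested leaves, 0.47 to 0.90 for RBCS1 in B75 minus B73 in infested leaves and -1.37 to -1.06 for RBCS2 in the F1 with B75 minus mid-parent in infested leaves. The last was -0.95 to -0.63 for RBCS1 in the response of the F1 with B75. Those that changed sign, none of them called, ranged over -0.11 to 0.23 for RBCS1 in B96 minus B73 in infested leaves, -0.48 to 0.22 for RBCS1 in the response difference of the F1 with B96 minus B96 and -0.26 to 0.46 for activase in the response difference of the F1 with B96 minus B96. Further ranges were -0.24 to 0.57 for RBCS2 in B75 minus B73 in control leaves, -0.14 to 0.69 for RBCS2 in the response difference of the F1 with B75 minus B73 and -0.27 to 0.22 for activase in the response difference of the F1 with B75 minus B73. Further ranges were -0.062 to 0.29 for RBCS1 in the F1 with B75 minus mid-parent for the response, -0.26 to 0.052 for RBCS2 in the response of B75 and -0.57 to 0.10 for RBCS1 in control B73 of the B75 minus the B96 experiment. The last gene range was -0.56 to 0.0011 for activase in control B73 of the B75 minus the B96 experiment. Ratio results crossed 0 as well. For the RBCS1 share, in percentage points, the response ranged over -0.64 to 6.93 in the F1 with B96. That of B73 ranged over -3.84 to 1.29 in the B96 and -1.80 to 3.12 in the B75 experiment. Differences of the share from B73 were -2.17 to 5.40 (infested F1 with B96) and -5.01 to 0.30 (control F1 with B75). For the log2 activase ratio the response ranged over -0.19 to 0.036 in the F1 with B96. In B73 of the B75 experiment it was -0.14 to 0.094, and for the infested F1 with B75 minus B73 -0.23 to 0.019.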
